A study of Mus musculus with 2 samples.

Results

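The genes described here are 35 genes of protein folding in the endoplasmic reticulum (ER) and of the unfolded protein response, chosen by gene name out of 34745 gene rows, in regulatory T (Treg) cells with and without the deubiquitinase POH1. RNA came from Foxp3-expressing CD4 T cells, which restrain immune responses. They were sorted from spleens of 2-week-old C57BL/6 mice by YFP, a fluorescent protein expressed with Cre from the Foxp3 locus, an allele that both groups carried. The wild-type library came from poh1+/+ Foxp3Cre+ mice and the knockout library from poh1fl/fl Foxp3Cre+ mice, in which the floxed alleles recombine in cells that express Foxp3. Each genotype had 1 library, with pooling of mice not given in the sources used here. The comparison asks how loss of POH1, the proteasome lid enzyme that takes ubiquitin off proteins before they are degraded, alters the RNA of Treg cells. No difference below has a replicate check, and no p-value is given.

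Proteins bound for the cell surface or for secretion enter the ER through a channel, fold there with the help of chaperones and disulfide-forming enzymes, and are pulled back to the cytosol and degraded by the proteasome when they fail to fold, a route called ER-associated degradation. When unfolded proteins build up in the ER, sensors in its membrane set off the unfolded protein response, which lowers protein synthesis and raises chaperone and degradation genes. Of these sensors, IRE1 (gene Ern1) removes a short intron from Xbp1 mRNA, PERK (gene Eif2ak3) phosphorylates the initiation factor eIF2, and ATF6 is cut to release a transcription factor. In lymphocytes the response is best known from plasma cells, which secrete antibody in bulk.

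The total count was 18124611 for wild type and 14544212 for knockout. Levels are in CPM, counts scaled to a library of 1000000, and ranges in parentheses are 95% counting intervals of the ratio, which cover counting error but not the spread between mice. Of the gene rows, 13464 reached 1 CPM in either library and are termed measured. A measured gene is called when its whole interval was further from equality than 1.5-fold. Psmd14, which encodes POH1, had 89.4 CPM without and 31.8 CPM with the floxed alleles, 2.81-fold less (2.53 to 3.12). Below, paired values give the wild-type library first. Foxp3 was at 671 and 1073 CPM, and Cd4 at 688 and 724 CPM, and the lowest of the 7 T cell and Treg markers in either library was Cd3g in the knockout, at 289 CPM. Of these, Foxp3 and Il2ra (989.8 and 1529.99 CPM) were called higher, and Ctla4 (1119.9 and 703 CPM) and Ikzf2 (825 and 526 CPM) lower. The exons of Foxp3 overlap those of Flicr over 31.5% of their length, so the Foxp3 value is uncertain.

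Sequence elements that the response acts on are shown first, because the genes below are grouped by them later. The ER stress response element (ERSE), written CCAAT, then 9 bases of any kind, then CCACG, is the site through which ATF6 and the factor NF-Y drive chaperone genes. Of the 35 genes, 28 had a promoter in the RefSeq table (GRCm38.p6, 250 bases before to 50 bases after the start site); the others are Atf6, Hyou1, Manf, Sec61a1, Ssr2, Ostc and Derl1. Searched on both strands, the element stood in 9 of these 28 genes (32.1%), against 39 of all 32851 promoters of the same length (0.119%). The first share counts genes and the second promoters. Since the element is known from chaperone genes, this contrast is a description and not a test. The matches are printed 5′ to 3′ in the direction of the element, with 5 bases on each side and its fixed letters in capitals.
Hspa5, chr2:34772020-34772048, plus strand: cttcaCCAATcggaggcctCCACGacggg
Hsp90b1, chr10:86705528-86705556, plus strand: actcaCCAATcgtgcctcaCCACGcactc
Hsp90b1, chr10:86705633-86705661, minus strand: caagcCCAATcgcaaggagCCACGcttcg
Pdia6, chr12:17266486-17266514, plus strand: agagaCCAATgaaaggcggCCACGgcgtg
Calr, chr8:84847070-84847098, plus strand: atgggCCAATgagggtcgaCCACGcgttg
Canx, chr11:50325795-50325823, minus strand: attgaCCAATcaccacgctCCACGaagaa
Creld2, chr15:88819515-88819543, minus strand: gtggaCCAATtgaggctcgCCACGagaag
Dnajc3, chr14:118937822-118937850, plus strand: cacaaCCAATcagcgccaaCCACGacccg
Derl3, chr10:75893237-75893265, minus strand: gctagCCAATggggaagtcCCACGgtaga
Syvn1, chr19:6046527-6046555, plus strand: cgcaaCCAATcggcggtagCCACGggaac
The related ERSE-II, written ATTGG, then 1 base of any kind, then CCACG, was in 2 of the 28 genes, Herpud1 and Dnajb11, against 12 of all promoters (0.0365%). In Herpud1 it lay before the start site.
Herpud1, chr8:94386372-94386392, plus strand: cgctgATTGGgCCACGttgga
The core of the element bound by XBP1, written TGACGTGG, was in 0 of the 28 genes and in 0.676% of all promoters. A match describes these letters in this window and does not show binding.

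**Figure D1:**
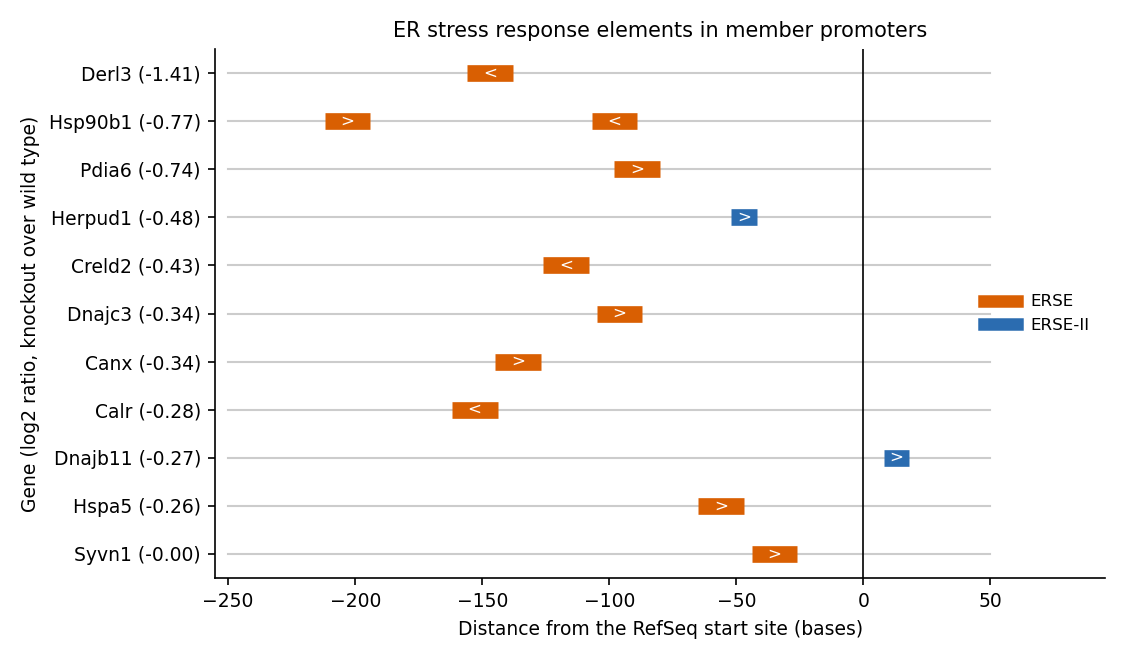
ERSE (orange) and ERSE-II (blue) matches in member promoters, by distance in bases from the RefSeq start site, with > for matches on the gene's strand and < for the opposite strand. Genes are ordered by their log2 ratio of knockout to wild type, given in parentheses. Hsp90b1 has 2 elements, and the ERSE matches lie between positions -212 and -26.

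Across the 35 genes, chaperone and folding enzyme genes were lower in the knockout library, most of them modestly, while Xbp1 was more than 2-fold higher. All 35 reached 1 CPM in at least 1 library. By the 1.5-fold rule 1 gene was higher (Xbp1) and 5 were lower (Ern1, Sdf2l1, Hsp90b1, Pdia6 and Derl3), and 29 were neither. Over all measured genes 9.58% were called higher and 12.3% lower, so the 5 lower genes are close to the share of the background. The lean of the list showed in small ratios rather than in calls. Its log2 ratio was below 0 in 27 of 35 genes, where 50.4% of all measured genes were below 0, and its median was -0.27 against -0.01 over all measured genes. The 95% interval lay wholly below 1 in 24 members, against 35.3% of all measured genes. Beyond 2-fold, 1 member was higher and 0 were lower, against 4.34% and 6.63% of measured genes. Of the 33 members at 20 CPM or more, 1 was higher and 4 were lower beyond 1.5-fold, against 8.87% and 10.5% of such genes, and 26 were below 0, against 50.1%. The summed level of the 35 genes was 5361 and 4540 CPM.

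**Figure D2:**
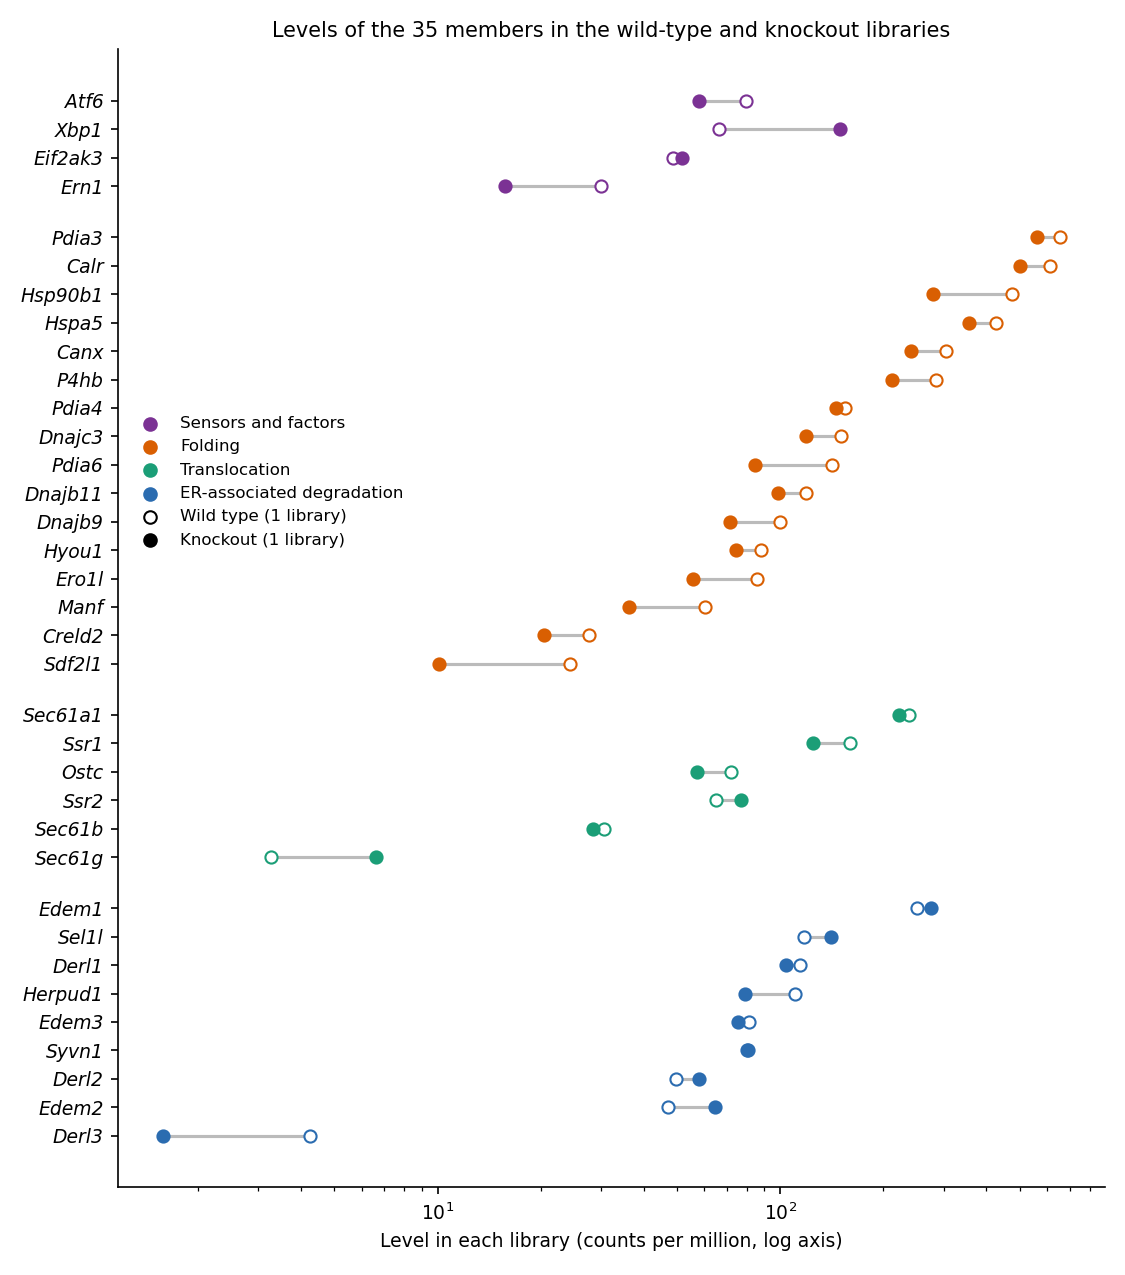
Level of each of the 35 genes in CPM on a log axis, in the wild-type library (open circles) and the knockout library (filled circles), by class. In the folding class every filled circle lies to the left of its open circle, and the widest gaps to the right belong to Xbp1 and Sec61g.

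Among sensors and factors, the genes went in opposite directions. Xbp1, the transcription factor whose mRNA IRE1 splices, is a gene of chromosome 11 (5520659 to 5525893, plus strand, mm10). Its 1205 and 2180 counts correspond to 66.5 and 149.8 CPM, with the knockout library higher. That is 2.25-fold higher (2.10 to 2.42), above the ratio of 93.1% of all measured genes. Ern1, the gene of IRE1 (chromosome 11, 106394650 to 106487852, minus strand), had 543 and 229 counts, or 29.97 and 15.7 CPM, 1.90-fold lower (1.63 to 2.23). The sensor and its substrate were thus on opposite sides in these libraries.

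The other sensors were not past the rule. Atf6 was at 79.7 and 58.1 CPM, 1.37-fold lower (1.26 to 1.496). Eif2ak3, the gene of PERK, was at 48.8 and 51.8 CPM, a ratio of 1.06 whose interval (0.961 to 1.17) includes 1. The class median of -0.19 over 4 genes therefore joins 1 called higher, 1 called lower and 2 called neither.

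The count of Xbp1 covers both forms of its mRNA. The intron that IRE1 removes is 26 bases long and lies in exon 4 of the gene's first listed transcript in the GENCODE M21 annotation, at chr11:5524279-5524304 on the plus strand. It was found as the interval between the cuts of 2 loops written CNGCAGC, each cut after its leading 3 bases, and is shown here in capitals with 15 bases on each side because gene counts cannot say in which share of the mRNA it was removed.
Xbp1, chr11:5524264-5524319, plus strand: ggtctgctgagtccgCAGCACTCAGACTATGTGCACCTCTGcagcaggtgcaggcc
Its removal shifts the reading frame and gives the active factor. The files hold counts for whole genes, so the spliced share was not analysed here.

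Folding genes were lower as a class without exception in sign. All 16 had a 95% interval wholly below 1, where 39.1% of the 7884 genes at 20 CPM or more had one, and their median log2 ratio was -0.38. Summed over the class, the levels were 3711 and 2869 CPM, 1.29-fold lower (1.28 to 1.31). By the 1.5-fold rule, 3 were lower and 0 higher. In genes at 20 CPM or more 10.5% were called lower.

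Sdf2l1, a partner of the chaperone BiP in the ER lumen (chromosome 16, 17130138 to 17132383, minus strand), stood furthest out. It had 440 and 147 counts, 24.3 and 10.1 CPM, 2.40-fold lower (1.99 to 2.92). Of all measured genes, 8.65% had a lower ratio. Its promoter had 0 matches to the ERSE or ERSE-II letters, in contrast to Hsp90b1 with 2, and the bases before both start sites are shown for comparison, in the direction of each gene with fixed ERSE letters in capitals. That of Hsp90b1 ends at position -66, at the edge of the outermost GENCODE transcript.
Sdf2l1, chr16:17132384-17132633, minus strand: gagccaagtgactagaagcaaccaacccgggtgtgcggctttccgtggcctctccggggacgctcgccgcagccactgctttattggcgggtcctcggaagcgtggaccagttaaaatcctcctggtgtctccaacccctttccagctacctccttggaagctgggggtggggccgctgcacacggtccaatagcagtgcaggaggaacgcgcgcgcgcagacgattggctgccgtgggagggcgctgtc
Hsp90b1, chr10:86705510-86705694, minus strand: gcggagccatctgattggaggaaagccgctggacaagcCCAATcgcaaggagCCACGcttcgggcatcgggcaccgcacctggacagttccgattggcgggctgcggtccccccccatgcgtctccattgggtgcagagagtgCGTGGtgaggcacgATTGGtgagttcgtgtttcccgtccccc

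Hsp90b1, the gene of the ER chaperone GRP94, which folds integrins and Toll-like receptors, was the most abundant of the called genes. It had 8634 and 4068 counts, or 477 and 279.6 CPM, 1.70-fold lower (1.64 to 1.77). Its exons overlap those of 1810014B01Rik over 15.7% of their length, and counts from a kit that does not mark strand cannot separate the pair. Pdia6, a disulfide isomerase that also acts on IRE1, had 2561 and 1228 counts, or 141 and 84.4 CPM, 1.67-fold lower (1.56 to 1.79). With Sdf2l1 these are the 3 folding genes past the rule.

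The chaperone and J-domain genes below the rule were closer to equal. Hspa5, the gene of BiP, which binds unfolded chains and holds the sensors inactive, was at 427 and 356 CPM, 1.20-fold lower (1.16 to 1.24). Dnajb9, a BiP cofactor that represses IRE1, was at 99.8 and 71.3 CPM, 1.40-fold lower (1.30 to 1.51). The cofactors Dnajc3 and Dnajb11 were 1.27-fold and 1.21-fold lower, and Hyou1, a nucleotide exchange factor for BiP, was 1.18-fold lower (1.09 to 1.28). BiP and its cofactors thus lay within a narrow band of ratios, apart from Sdf2l1.

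Manf, a secreted ER stress factor that binds BiP, came nearest to the rule without passing it, at 60.2 and 36.3 CPM, 1.66-fold lower (1.49 to 1.84). With the 20 most abundant genes left out of the library totals it was also called lower. Creld2, another secreted stress-induced protein, was at 27.6 and 20.5 CPM, 1.35-fold lower (1.16 to 1.56).

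Lectin chaperones and most oxidoreductases were lower by less than the rule, by widely differing ratios. Pdia3, the isomerase that works with the lectins and in MHC class I loading, had the highest FPKM of the 35 genes in both libraries, 166 and 142, and was 1.17-fold lower (1.13 to 1.20). Per kilobase of annotated exon, Calr (213 and 175 CPM) and Pdia3 (209 and 179 CPM) changed places between the libraries. Calr and Canx, the lectin chaperones calreticulin and calnexin that hold glycoproteins, were 1.22-fold (1.18 to 1.26) and 1.27-fold lower (1.21 to 1.32). The isomerase gene P4hb was 1.34-fold lower (1.28 to 1.40). Ero1l, the oxidase that recharges the isomerases, was at 85.4 and 55.7 CPM, 1.53-fold lower (1.41 to 1.67). Pdia4 was closest to equal in the class, at 154 and 145 CPM, with an interval of 1.00 to 1.12 for its fold.

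**Figure D3:**
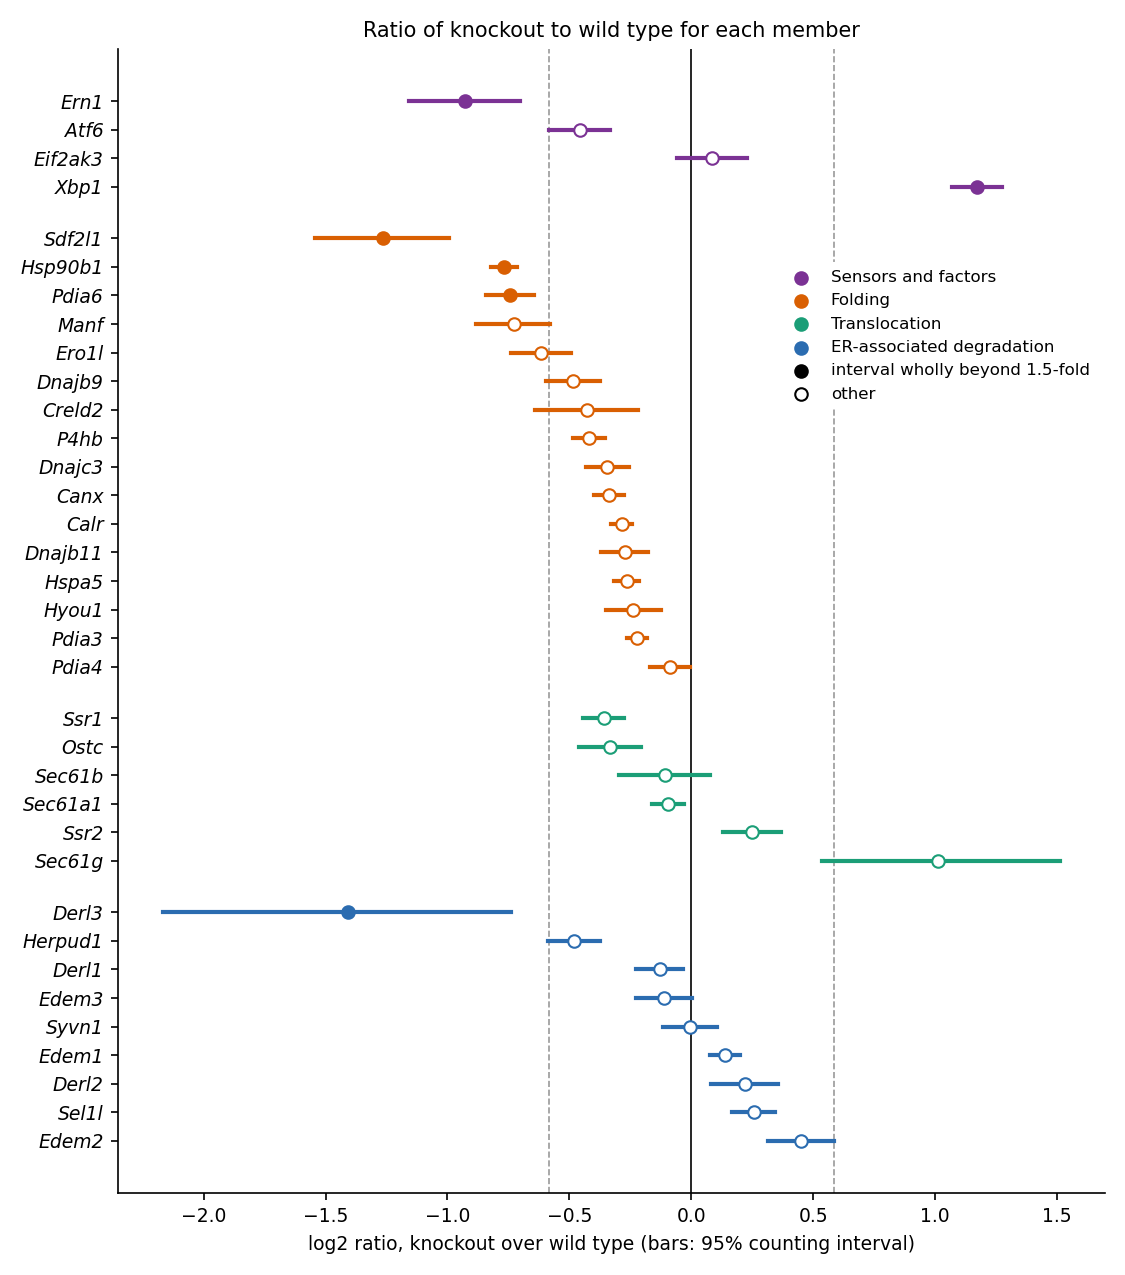
Ratio of knockout to wild type for each gene on the log2 scale, with 95% counting intervals, by class; filled points have an interval wholly beyond 1.5-fold (dashed lines). The 16 folding genes all lie left of 0, while degradation genes lie on both sides.

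Translocation genes lay on both sides, and none passed the rule (0 higher, 0 lower, median log2 ratio -0.10). Sec61a1, the channel subunit of the translocon and the highest gene of the class by FPKM in the wild-type library (23.0), was at 238 and 223 CPM, 1.07-fold lower (1.02 to 1.12). Ssr1, a subunit of the translocon-associated protein complex, was lowest by ratio, at 160.4 and 125 CPM, 1.28-fold lower (1.21 to 1.36). Its partner Ssr2, highest of the class by FPKM in the knockout library (23.6), lay on the other side, at 64.8 and 77.1 CPM, 1.19-fold higher (1.09 to 1.29). Ostc, a subunit of the oligosaccharyltransferase that attaches N-glycans, was 1.26-fold lower (1.15 to 1.38).

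The small channel subunits are hard to count. Sec61g had 59 and 96 counts, or 3.26 and 6.60 CPM, a ratio of 2.03 (1.45 to 2.85). Of the 50-base words of its coding transcript that shares most, 77.6% also occur in transcripts of other annotated genes, and for Sec61b, at 30.6 and 28.4 CPM, the share was 50.4%. For Ssr2 it was 43.6%. How reads that match several places were handled was not given in the sources used here, so these 3 values are uncertain. With them and Hsp90b1 left out, an alternative chosen after the data were seen, the translocation median was -0.33 over 3 genes.

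Degradation genes were the class with the median nearest to 0, at a log2 ratio of -0.00, with 1 called lower, 0 called higher and 5 of 9 below 0. This median joins genes on both sides. The interval lay wholly below 1 in 3 genes, wholly above 1 in 4, and included 1 in 2. Derl3, a derlin of the exit channel that is typical of secretory cells (chromosome 10, 75893413 to 75895941, plus strand), had 77 and 23 counts, 4.25 and 1.58 CPM, 2.69-fold lower (1.67 to 4.49). Its counts are few, and with a 99% interval it was not called. The widely expressed derlins lay elsewhere. Derl1, the highest of the class by FPKM (36.2 and 33.1), was at 114 and 104 CPM, 1.09-fold lower (1.02 to 1.17). Per kilobase of annotated exon, Derl1 (34.2 and 31.3 CPM) lay below Herpud1 (47.3 and 33.9 CPM) and Edem1 (38.9 and 42.8 CPM) in both libraries. Derl2 was at 49.8 and 57.9 CPM, 1.16-fold higher (1.06 to 1.28).

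The mannose-trimming and ligase genes of this route were equal or slightly higher. Edem2, a mannosidase that marks misfolded glycoproteins, was highest of the class by ratio, at 47.1 and 64.3 CPM, 1.37-fold higher (1.24 to 1.501). Edem1 was at 251 and 276 CPM, 1.10-fold higher (1.05 to 1.15), and Edem3 was at 81.3 and 75.3 CPM, with an interval that includes 1. Sel1l, the adaptor of the ligase HRD1, was at 118 and 141 CPM, 1.20-fold higher (1.12 to 1.27). Syvn1, which encodes HRD1 itself, was at 80.4 and 80.1 CPM. Its log2 ratio of -0.00 turned to 0.04 with upper quartile scaling, and it was the 1 gene of the 35 whose sign moved with the scaling. The exception among these genes was Herpud1, which assembles the ligase complex and carries the ERSE-II above. It was at 110.3 and 79.0 CPM, 1.40-fold lower (1.30 to 1.501).

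**Figure D4:**
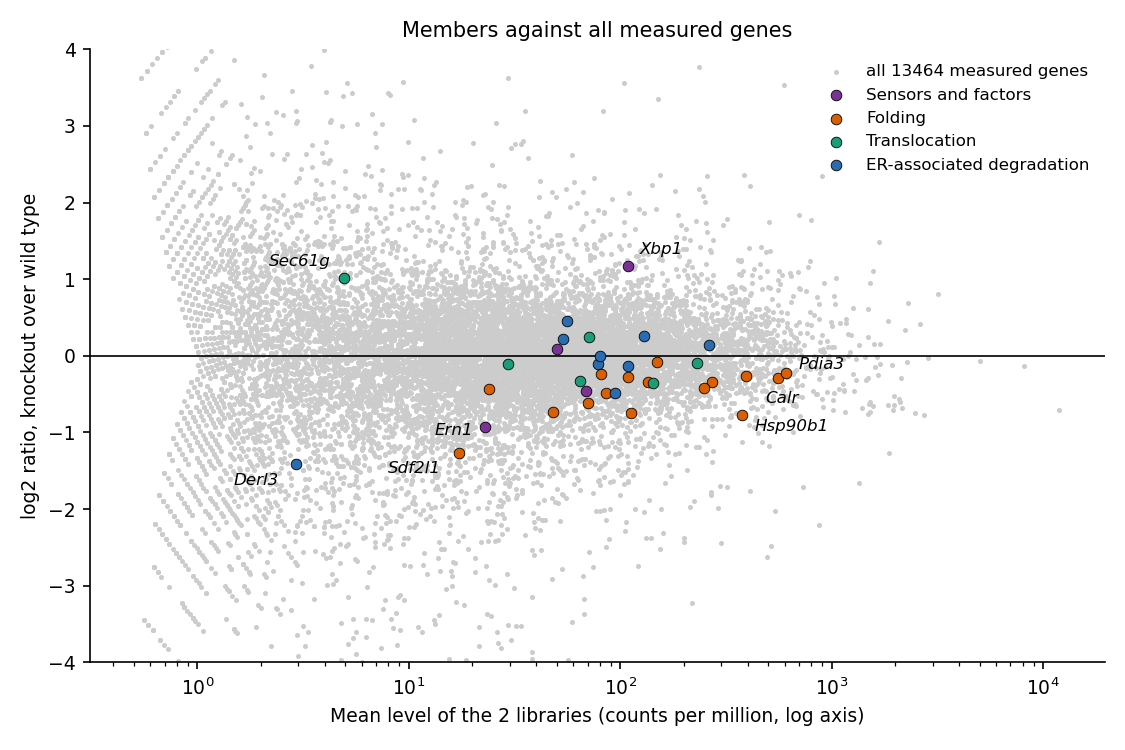
Mean level of the libraries in CPM (log axis) against the log2 ratio of knockout to wild type for 13464 measured genes (grey) and the 35 genes by class; 172 genes lie beyond the axis limits of 4 and -4. Most members are abundant genes, and the folding genes lie below 0 while Xbp1 lies above 1.

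The 9 genes with an ERSE all had a log2 ratio below 0, with a median of -0.34. Of them 3 were called lower and 0 higher, against 12.3% and 9.58% of all measured genes. In the 19 genes with a promoter but no ERSE the median was -0.11, with 12 below 0. These include Herpud1 and Dnajb11, which carry the ERSE-II. This contrast follows the classes, since 7 of the 9 are folding genes. Within the folding class, the 7 genes with the ERSE had a median of -0.34 and the 7 without it, Dnajb11 among them, -0.42. Outside the 35 genes, 9 measured genes carried the element, with a median of 0.02, 1 called higher and 1 called lower. These include Xlr3a, Xlr3b and Xlr3c, which belong to 1 gene family, and the median is the value of Xlr3a.

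Another 108 genes of the same roles, listed from textbook knowledge, are set beside the members. Their calls are read against 12.3% called lower and 9.58% called higher over all measured genes. Lower calls in the folding and translocation lists were no more frequent than that share. Both lists leaned low in small ratios, with 22 of 29 and 20 of 30 measured genes below 0, against 50.4% of all measured genes. The interval lay wholly below 1 in 15 and 17 of these genes, against 35.3%. In the degradation and signalling lists 8 of 25 and 8 of 17 measured genes were below 0. Of 29 measured folding genes, 3 were lower, 0 higher and 26 neither, with a median of -0.18. Prdx4, a peroxiredoxin that feeds oxidising power to the isomerases, was 1.76-fold lower (1.52 to 2.05), and the isomerase gene Txndc5 1.63-fold lower (1.52 to 1.76). The other called gene, Pdia5, falls outside the rule for named genes because of its low level and is named after its values were seen, with 32 and 4 counts. Ganab, a glucosidase that trims N-glycans, was at 240.4 and 265 CPM. Mogs, another glucosidase, was 1.55-fold lower (1.44 to 1.66) and not called. Sdf2, the relative of Sdf2l1 that stress does not induce, was at 27.8 and 42.0 CPM, a ratio of 1.51 (1.34 to 1.71). The paralogues Sdf2 and Sdf2l1 were thus on opposite sides. The exons of Sdf2 overlap those of Supt6 over 16.0% of their length, so its value is uncertain.

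Of 30 other translocation genes, 2 were lower and 0 higher (median -0.17). Rpn1, a core subunit of the oligosaccharyltransferase, was at 133 and 70.8 CPM, 1.88-fold lower (1.74 to 2.02), and Spcs3, a signal peptidase subunit, 1.62-fold lower (1.52 to 1.72). Krtcap2, another oligosaccharyltransferase subunit, was 1.65-fold lower (1.43 to 1.90), short of the rule. Its exons overlap those of Trim46 over 15.7% of their length, so this value is uncertain too. In the signal recognition particle no gene was called. The interval lay wholly above 1 for Srp72, Srp19 and Srp68, and included 1 for Srp9 and Srp14. Srp72 was at 164 and 203 CPM, Srp19 at 40.4 and 56.4 CPM and Srp9 at 101 and 100.3 CPM. Srpr, the gene of the particle's receptor, was at 165 and 123 CPM, 1.35-fold lower (1.27 to 1.43). Tram2, a translocon-associated membrane protein, was 1.54-fold higher (1.39 to 1.72).

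Of 25 measured other degradation genes, 3 were called higher and 0 called lower; the median was 0.10. The higher calls are near the 9.58% of all measured genes. All 3 act on the cytosolic side, where the segregase p97 pulls proteins out of the membrane. Ufd1l, a p97 adaptor, was at 43.5 and 106 CPM, 2.45-fold higher (2.24 to 2.67), and its partner Nploc4 1.64-fold higher (1.55 to 1.74). Yod1, a deubiquitinase that works with p97, was 1.85-fold higher (1.64 to 2.08). Vcp, the gene of p97, was at 240.2 and 331 CPM and was not called. Ubxn4, Faf2, Ngly1, Ubxn8 and Vimp, which also bind p97, were not called and lay on both sides. Ubxn4 was at 156 and 204 CPM, Faf2 at 88.7 and 93.4 CPM and Ngly1 at 62.8 and 65.2 CPM. Ubxn8 was at 26.2 and 22.9 CPM, and Vimp at 42.6 and 36.6 CPM. The lowest of the whole list by interval was Ube2j1, the ubiquitin-conjugating enzyme of the ER membrane, at 255 and 199.9 CPM.

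In 17 measured signalling genes, 1 was higher and 0 lower (median 0.03). Trib3, a pseudokinase gene induced by ATF4 and CHOP, had 60 and 290 counts, 6.02-fold higher (4.55 to 8.09). The mRNA of neither factor was called higher. Their protein activity was not measured, and the cause of the Trib3 difference was not tested. Atf4 was at 255 and 196 CPM, and Ddit3, the gene of CHOP, at 26.1 and 26.7 CPM. Ppp1r15a, which recruits the eIF2 phosphatase, was at 277 and 192 CPM, 1.44-fold lower (1.37 to 1.51), and Eif2s1, the gene of the eIF2 subunit that PERK phosphorylates, 1.58-fold lower (1.47 to 1.70). Creb3 and Mbtps2, a membrane-bound factor and the protease that releases such factors, were 1.37-fold (1.22 to 1.54) and 1.43-fold higher (1.24 to 1.66), short of the rule. The exons of Creb3 overlap those of Tln1 over 20.8% of their length. For Mbtps2 the overlap with Yy2 is 28.4%, so both values are uncertain.

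**Figure D5:**
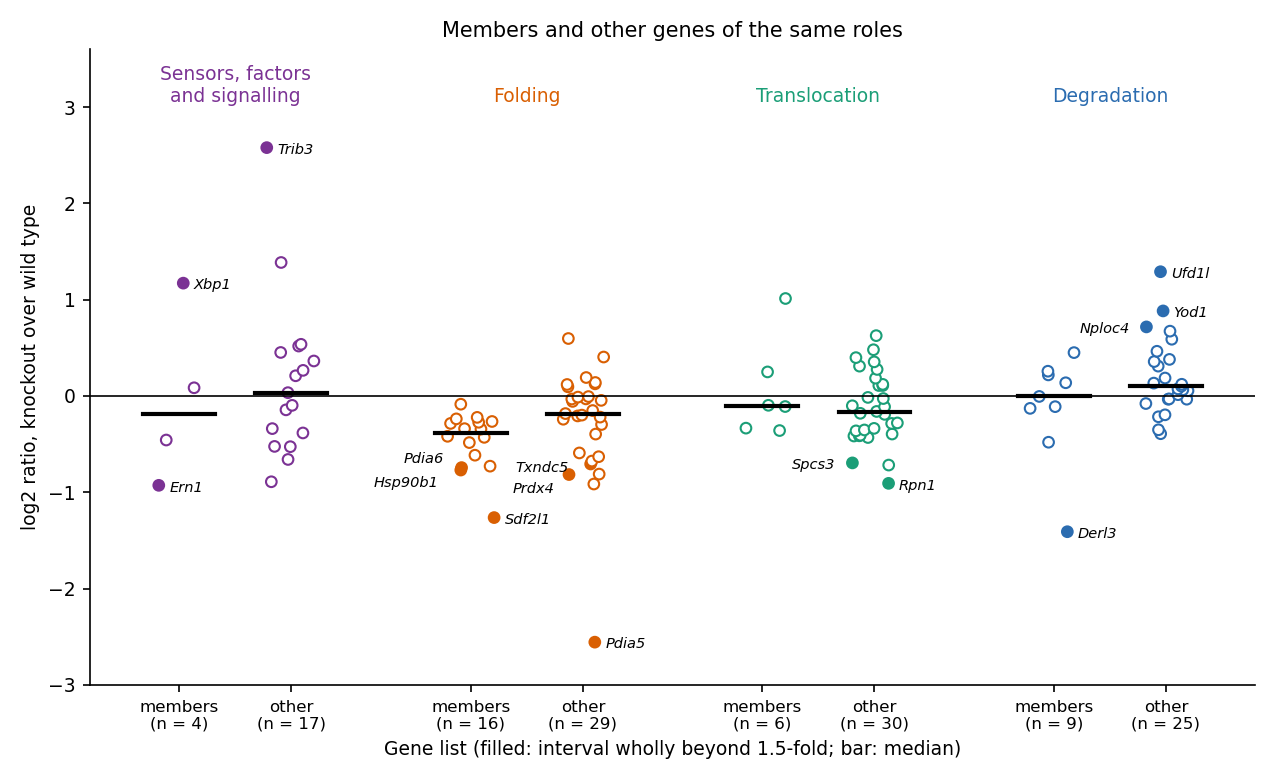
log2 ratio of knockout to wild type for the 35 members by class and for the other measured genes of the same roles; points filled and named have an interval wholly beyond 1.5-fold and bars are medians. The medians are lowest in the folding members (-0.38) and highest in the other degradation genes (0.10).

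Markers of other cell types and states also differed between the libraries, in both directions. All 8 proliferation markers were called lower, and their summed levels were 2183 and 799.9 CPM. Among 7 plasma cell markers, a cell type rich in folding genes, 1 was higher (Igkc, 71.4 and 121 CPM), 2 were lower, and the sum was 1029 and 379.6 CPM. Without Ighm, a sum taken after the values were seen, it was 164 and 166 CPM. The markers called lower were Ighm (866 and 213 CPM) and Prdm1 (77.2 and 23.2 CPM), the latter also a gene of effector Treg cells, while Jchain was at 9.66 and 17.0 CPM and Tnfrsf17 at 0 counts in both libraries. All 8 B cell markers were lower (149 and 39.5 CPM in sum), as were all 8 erythroid markers (95.3 and 21.5 CPM). Dendritic cell markers were lower in 5 of 6 (21.97 and 7.29 CPM), with Xcr1, Clec9a and Cd209a at 0 counts in the knockout library. Of 9 myeloid markers 1 was called higher and 1 lower (136 and 172 CPM), with Elane at 0 counts in both libraries and S100a8 in the knockout. The markers Cd8a and Cd8b1 were both higher (18.8 and 47.4 CPM in sum). Of 4 NK cell markers 1 was higher (2.70 and 9.21 CPM), with Klra8 at 0 counts in both libraries and Ncr1 in the knockout. The part of these cells and of cell division in the folding gene values was not tested, and with bulk RNA a change in the mix of cells and a change in RNA per cell cannot be told apart.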

How the data were processed

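RNA was sequenced from 1 wild-type and 1 knockout library of sorted splenic Treg cells. Reads were aligned to mm10 with TopHat and counted with HTSeq, per the submitters' processing notes; versions, annotation and the treatment of multiply matching reads were not given in the sources used here. The authors deposited counts per gene and FPKM values for each library. The lengths behind the deposited FPKM exceed the GENCODE M21 exon length in 27 of 35 members, so levels per exon kilobase were also computed. The kit, per the labels, does not mark strand.

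Counts were scaled by TMM (edgeR 4.0.16, R 4.3.3). The ratio of the libraries has an exact (Clopper-Pearson) 95% interval, and 0.5 counts were added for log2 ratios. With 1 library per genotype no model was fitted. Genes were called where the interval lay wholly beyond 1.5-fold at 1 CPM or more. The interval script was tested on simulated data. Exon overlaps came from bedtools 2.31.1. The members and lists were chosen with earlier results of these data known. Full values are given for called members, for the ends of each class by ratio and for its most abundant member by FPKM. The other lists give up to 3 genes at each end at 5 CPM or more. Further genes of these lists, such as Vcp, Srp9, Srpr, Atf4 and Ddit3, are named outside that rule. Alternatives were other scalings, filters, interval levels and fold limits, and leaving out members that share sequence.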

Additional observations from a re-analysis of the deposited data

How the results depend on the processing

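The 5 members called lower became 0 beyond 2-fold and 11 beyond a limit laxer than 1.5-fold, and the 1 called higher (Xbp1) became 2 under that laxer limit, with Sec61g added; these follow from the limit itself. The translocation median of -0.10 was -0.33 without members that share at least 10% of their sequence or exons, an alternative chosen after seeing the data that leaves 3 genes. The folding median lay between -0.40 and -0.34 and that of all members between -0.29 and -0.23 over the alternatives run. The degradation median of -0.00 became 0.04 with upper quartile scaling and 0.07 with a filter at 5 CPM, so its sign is not fixed, and the log2 ratio of Syvn1 also became 0.04 with upper quartile scaling. None of the 6 called members changed sign in the alternatives run. Another scaling moved log2 ratios by at most 0.04. No paired analysis was possible because each genotype had 1 library and the labels give no replicate numbers. The spread between mice is not known, and for genes such as Derl3 and Sec61g the counts themselves limit the ratio.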
